A study of Mus musculus with 6 samples.

Results

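Loricrin, involucrin, the filaggrin-type proteins and the epidermal transglutaminases build the hard outer layer of the skin. RNA levels of 10 genes of this kind were to be read by gene symbol from RNA sequencing of whole skin, namely Flg, Flg2, Hrnr, Rptn, Lor, Ivl, Tchh, Tgm1, Tgm3 and Tgm5. The table holds 23951 gene symbols, and 9 of the 10 genes have a row in it. Flg, the gene of filaggrin, is not analysed here. The study compared 3 JunBΔep mice with 3 control mice, all on the C57Bl/6 strain, 6 to 7 months old per the labels and littermates. JunBΔep mice carry a floxed Junb allele, which loses its sequence only where a Cre recombinase under the keratin 5 (K5) promoter is active, that is, in basal keratinocytes and other cells of stratified epithelia and their progeny. The study describes the JunBΔep skin as lesional. Cells of the dermis, muscle and blood keep Junb by this design. Controls are labelled JunB +/+. The labels name no treatment and give neither the sex of each mouse nor the body site. Each library is 1 mouse, named here by its group and by the replicate number 0, 1 or 2 in the labels. The number of mice is 3 per group, and lower where a mouse is left out or only some mice are compared. Levels are FPKM, that is, fragments scaled to the length of the transcript and to the size of the library. This scaling serves comparison between genes, but repeated sequence within a gene can change its FPKM, by an amount not tested.

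As keratinocytes leave the basal layer of the epidermis they begin to make proteins that are later cross-linked under the plasma membrane into the cornified envelope. Involucrin is an early scaffold of this envelope, and loricrin is the glycine-rich protein that makes up most of its mass. Filaggrin and its relatives filaggrin-2, hornerin, repetin and trichohyalin are long repetitive proteins with an S100-type calcium-binding start, encoded side by side in the epidermal differentiation complex. Transglutaminases form the bonds between glutamine and lysine residues that hold these proteins together. In this family transglutaminase 1 is bound to the membrane, and transglutaminases 3 and 5 act in the cytoplasm. Trichohyalin and transglutaminase 3 are also prominent in the inner root sheath of the hair follicle. JUNB, the protein missing from the epidermis by design, is a subunit of the AP-1 transcription factor.

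On the mm9 build (GENCODE annotation), 6 of the 9 genes lie together on chromosome 3. Lor lies at 91884197 to 91887064 and Ivl at 92374834 to 92377637, both on the minus strand. Flg2 at 93004132 to 93024715, Hrnr at 93123671 to 93137492, Rptn at 93197621 to 93203364 and Tchh at 93246252 to 93252999 follow on the plus strand. The transglutaminase genes lie elsewhere, Tgm3 at 129838085 to 129876135 (plus strand) and Tgm5 at 120871847 to 120911577 (minus strand) on chromosome 2 and Tgm1 at 56318846 to 56332329 (minus strand) on chromosome 14. The structural genes are compact, with 2 exons for Lor and Tchh, 3 for Ivl and Rptn, at most 4 for Hrnr and 6 for Flg2, while Tgm1 and Tgm3 have up to 15 exons and Tgm5 up to 13.

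Because AP-1 is the factor perturbed in these mice, the promoter windows of the 9 genes, from 250 bases before to 50 bases after the RefSeq start, were searched on both strands for the AP-1 letters TGANTCA and for the TATA box letters TATAAA. AP-1 letters occurred in the windows of Lor, Ivl, Flg2 and Rptn, that is, 4 of 9 genes, and in 7.81% of all 32851 promoter windows of the RefSeq table (GRCm38.p6). TATAAA occurred in the windows of Lor, Ivl, Hrnr, Rptn and Tgm3, that is, 5 of 9 genes, and in 13.6% of all windows. The letters AACCNGTT, bound by grainyhead-type factors, occurred in Rptn and Tgm5 and in 2.09% of all windows. None of the 3 motifs was found in the windows of Tchh or Tgm1. The 130 bases before the start are shown for the 4 genes with AP-1 letters, which include the steadiest of the 9 genes (Ivl) and those that stand out in 1 library below (Flg2 and Rptn). They are written 5′ to 3′ on the strand of the gene, with the AP-1 letters and TATAAA in capitals, and each was found once in the mm9 genome. Lor is read from chr3:91887065-91887194 (minus strand), Ivl from chr3:92377658-92377787 (minus strand), Flg2 from chr3:93001065-93001194 (plus strand) and Rptn from chr3:93197491-93197620 (plus strand).
Lor: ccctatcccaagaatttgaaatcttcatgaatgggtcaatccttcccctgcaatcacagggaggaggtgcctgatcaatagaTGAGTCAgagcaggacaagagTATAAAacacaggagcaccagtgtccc
Ivl: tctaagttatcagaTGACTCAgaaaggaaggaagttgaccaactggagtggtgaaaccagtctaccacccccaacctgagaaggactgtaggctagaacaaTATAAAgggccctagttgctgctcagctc
Flg2: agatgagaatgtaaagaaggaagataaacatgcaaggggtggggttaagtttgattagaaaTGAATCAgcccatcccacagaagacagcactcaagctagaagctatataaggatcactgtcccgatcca
Rptn: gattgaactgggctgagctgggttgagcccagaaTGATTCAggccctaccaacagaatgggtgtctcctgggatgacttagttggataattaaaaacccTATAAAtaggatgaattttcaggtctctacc
The start of Flg2 in RefSeq lies upstream of the position above, in which the annotated gene begins. The AP-1 letters begin 48 bases before the start in Lor, 69 in Flg2, 96 in Rptn and 116 in Ivl. A match of letters is a description of the window and does not show that AP-1 binds there.

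Several values of the libraries as a whole are given first. FPKM summed to 481078 to 630363 per mouse, and 18418 to 18873 genes were above 0. The commonest ratio of values under 0.15 FPKM put the scaling totals of the libraries at 0.955 to 1.14 times that of control replicate 0, while the number of reads itself is unknown. Junb, the targeted gene, read 59.3, 72.4 and 56.9 FPKM in the controls against 130, 42.8 and 28.0 FPKM for JunBΔep replicates 0, 1 and 2. Replicate 0 of JunBΔep thus had more Junb RNA than any control and is called the library labelled JunBΔep replicate 0 throughout, and values that rest on it are given without it where they move most. In that library Krt14, a basal keratin, and Krt6a, Krt6b, Krt16 and S100a9 were listed at 0, which in a table without counts can be a failed estimate. Of the other defining keratins of epidermis, Krt5 was at 1588 to 3725 FPKM and Krt10 at 1968 to 3872 FPKM over the 6 mice, Krt77 read 1.79 FPKM for the library labelled JunBΔep replicate 0 and 945 to 2159 FPKM elsewhere, and Krt2 was at 0.334 to 1.00 FPKM over the 6 mice. Genes of skeletal muscle, summed over 10 markers, were at 20385 to 29143 FPKM in control skin but 1859 to 4418 FPKM in JunBΔep skin. The sample numbers in the titles form a 23x series, with control replicates 0 and 1 and the library labelled JunBΔep replicate 0, and a 27x series, with control replicate 2 and JunBΔep replicates 1 and 2. The labels do not say what those numbers mark. A fold change within the 23x series has the library labelled JunBΔep replicate 0 as its only JunBΔep mouse. Within the 27x series it rests on 1 control.

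None of the 9 genes passed the test between genotypes. Fold changes are differences of mean log2(FPKM + 0.5), JunBΔep minus control, tested with limma across 17021 genes, those whose mean reached 0.1 FPKM, and adjusted by Benjamini-Hochberg over all of them. All 9 genes passed that filter. Across all tested genes 0% were called higher and 1.38% lower at an adjusted p below 0.05, and 7.56% had an unadjusted p below 0.05, which no member reached. The 235 genes behind the 1.38% became 254 without JunBΔep replicate 2, 135 without the library labelled JunBΔep replicate 0, and 0 with either block, without any 1 control or without JunBΔep replicate 1. Of the 9 log2 fold changes 6 were positive and 3 negative, with a median of 0.50 beside 0.03 over all tested genes. Without the library labelled JunBΔep replicate 0 the median of the 9 was 0.01, again none was called, and 0.798% of 16912 tested genes were called in either direction. The standard errors ranged from 0.16 for Ivl to 2.62 for Tchh, so the same test had very different precision for different members. With 3 mice against 3 an exact permutation test of a single gene cannot give a p below 0.1. In whole skin, fewer cells of a type and less RNA per cell cannot be told apart.

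**Figure D1:**
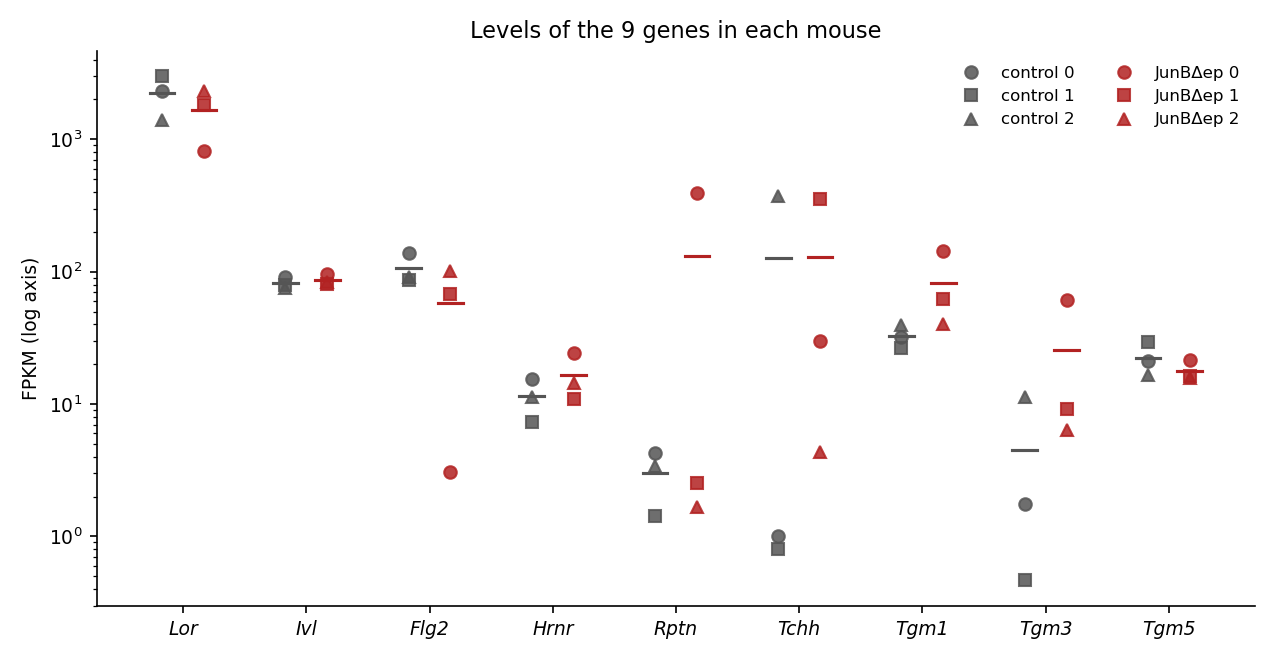
Level of the 9 genes in each of the 6 mice, in FPKM on a log axis. Grey symbols are the 3 control mice, red symbols the 3 JunBΔep mice (circle, square and triangle for replicates 0, 1 and 2), and horizontal lines are group means. Ivl spans 75.3 to 96.5 FPKM over all mice, while Rptn stands at 392 FPKM and Flg2 at 3.08 FPKM for the library labelled JunBΔep replicate 0 (red circles), and Tchh reads 376 and 351 FPKM in control replicate 2 and JunBΔep replicate 1.

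Lor, which encodes loricrin, was the most abundant of the 9 RNAs in every mouse. It read 2335, 3011 and 1408 FPKM in control replicates 0, 1 and 2 and 823, 1829 and 2316 FPKM in JunBΔep replicates 0, 1 and 2. The lowest value was that of the library labelled JunBΔep replicate 0, and the other JunBΔep mice lay inside the range of the controls. The means were 2251 ± 805 FPKM for the controls (SD, n = 3) against 1656 ± 762 FPKM for JunBΔep mice (SD, n = 3), a log2 fold change of -0.50 ± 0.52 (SE, limma adjusted p = 0.750). Without the library labelled JunBΔep replicate 0 the log2 fold change was -0.06. Within the 23x series it was -1.69 and within the 27x series 0.55, so the sign was not the same in both. Lor made up 88.4%, 92.8% and 69.2% of the summed FPKM of the 9 genes in the controls and 51.6%, 75.3% and 89.6% in JunBΔep replicates 0, 1 and 2. That sum ran from 2034 to 3244 FPKM in control skin and from 1595 to 2584 FPKM in JunBΔep skin.

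Ivl, which encodes involucrin, was the steadiest of the 9. The controls had 91.1, 79.4 and 75.3 FPKM and the JunBΔep mice 96.5, 80.9 and 83.6 FPKM. Over all 6 mice its coefficient of variation was 9.37%, and the highest value was 1.28 times the lowest. The log2 fold change was 0.09 ± 0.16 (SE, limma adjusted p = 0.850) and stayed between 0.01 and 0.17 when any 1 mouse was left out. Ivl did not share the low level that Lor had in the library labelled JunBΔep replicate 0, and the ratio of Lor to Ivl was 25.6, 37.9 and 18.7 in the controls, 8.52 in that library and 22.6 and 27.7 in the other JunBΔep mice. Both promoters carry AP-1 letters and TATAAA.

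Among the filaggrin-type genes, Flg2, which encodes filaggrin-2, was abundant in 5 mice and low in 1. It read 139, 87.0 and 91.8 FPKM in the controls and 3.08, 68.2 and 101 FPKM in JunBΔep mice. In the library labelled JunBΔep replicate 0 it was 34.4-fold below the control mean, whereas JunBΔep replicate 2 lay within the control range and replicate 1 below it. The log2 fold change of -1.83 ± 1.25 (SE, limma adjusted p = 0.722) became -0.31 without that library. It was -4.95 within the 23x series and -0.14 within the 27x series.

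Rptn, which encodes repetin, showed the opposite extreme in the same library. The controls had 4.26, 1.42 and 3.39 FPKM, and the JunBΔep mice had 392, 2.54 and 1.66 FPKM. The library labelled JunBΔep replicate 0 was 130-fold above the control mean, and the other 2 JunBΔep mice lay within the range of the controls. The log2 fold change was 2.06 ± 2.00 (SE, limma adjusted p = 0.737) with all mice and -0.36 without that library, a change of direction. Within the 23x series it was 7.02 and within the 27x series -0.60. Rptn ranked 7th, 7th and 9th of the 9 genes by level in the controls, 2nd in the library labelled JunBΔep replicate 0, and 9th in JunBΔep replicates 1 and 2.

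Hrnr, which encodes hornerin, varied far less than its neighbours. It read 15.6, 7.28 and 11.4 FPKM in the controls and 24.2, 10.9 and 14.4 FPKM in JunBΔep mice, and the groups overlapped. Its log2 fold change was 0.50 ± 0.39 (SE, limma adjusted p = 0.722), with 0.19 without the library labelled JunBΔep replicate 0 and 0.19 to 0.75 when any 1 mouse was left out. The ratio of Flg2 to Hrnr was 8.93, 11.95 and 8.06 in the controls, 6.29 and 7.02 in JunBΔep replicates 1 and 2, and 0.127 in the library labelled JunBΔep replicate 0. The ratio of Rptn to Hrnr was 0.196 to 0.298 in the controls, 0.234 and 0.115 in JunBΔep replicates 1 and 2, and 16.2 in that library. These 3 genes therefore did not keep a common ratio in it, although they lie in the same stretch of chromosome 3. Of all 50-base windows in the longest annotated transcript, 69.1% occur more than once within the Hrnr transcript, 26.3% within Flg2, 10.1% within Tchh and 5.49% within Rptn, and 0% within the transglutaminases. Reads from such repeats have several places to align within the same gene, and what this does to the FPKM was not tested.

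Tchh, which encodes trichohyalin, spread over the widest range, with no split by genotype. It read 1.00, 0.807 and 376 FPKM in the controls and 30.2, 351 and 4.36 FPKM in JunBΔep mice. The highest value was a control and the next highest a JunBΔep mouse, and the highest was 466 times the lowest. The log2 fold change was 2.05 ± 2.62 (SE, limma adjusted p = 0.795). It was 4.45 within the 23x series and -3.19 within the 27x series, and leaving out any 1 mouse gave 0.43 to 4.74. Markers of the inner root sheath, the layer of the hair follicle in which trichohyalin accumulates, moved with it: the summed FPKM of 8 such markers were 4.73, 1.90 and 3430 in the controls and 307, 6007 and 93.9 in JunBΔep mice. Among them Krt71, an inner root sheath keratin, was at 0.191, 0.343 and 1318 FPKM in the controls and 120, 2160 and 32.9 FPKM in JunBΔep mice. Summed over 9 genes, hair shaft keratins were at 0.632, 1.45 and 1605 FPKM in the controls and 97.3, 1986 and 20.1 FPKM in JunBΔep mice. Markers at 0 were Krt73 in control replicate 0, Krt81 in control replicates 0 and 1, and Krt85 in the library labelled JunBΔep replicate 0. Tchh and the summed markers were both high in control replicate 2 and JunBΔep replicate 1 and both low in control replicates 0 and 1. Of the sum in control replicate 0, 3.20 FPKM came from Padi4, a deiminase that neutrophils also express. The part of the hair follicle in the difference between genotypes was not tested.

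Tgm1, which encodes the membrane-bound transglutaminase, was the 1 member of the 9 whose 3 JunBΔep values all lay above all 3 control values. The controls had 32.0, 26.4 and 39.9 FPKM and the JunBΔep mice 144, 61.9 and 40.5 FPKM. The lowest JunBΔep value and the highest control value were close, and the means were 32.8 ± 6.79 FPKM (SD, n = 3) and 82.3 ± 54.9 FPKM (SD, n = 3). Over all tested genes, 5.62% had all JunBΔep values above all control values and 9.16% all below, so 1 of 9 in the first direction and 0 of 9 in the second are set against those shares. The log2 fold change was 1.13 ± 0.47 (SE, limma unadjusted p = 0.0525, adjusted p = 0.671). It was 0.63 without the library labelled JunBΔep replicate 0, and was 2.29 within the 23x series and 0.32 within the 27x series.

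Tgm3, whose enzyme works in both the epidermis and the hair follicle, was at 1.76, 0.465 and 11.3 FPKM in the controls and 60.7, 9.11 and 6.41 FPKM in JunBΔep mice. The library labelled JunBΔep replicate 0 was highest, and control replicate 2 was above the other 2 JunBΔep mice. Its log2 fold change of 2.43 ± 1.18 (SE, limma unadjusted p = 0.0840, adjusted p = 0.719) was the largest of the 9 with all mice and no block. With the title series as a block it was 2.42, below the 3.21 of Rptn. Without the library labelled JunBΔep replicate 0 it was 1.47, below the 2.19 of Tchh, and leaving out any 1 mouse gave 1.47 to 3.43. Within the 23x series it was 5.37 and within the 27x series -0.54. The 2 controls with the lowest Tgm3 were also those with the lowest summed inner root sheath markers, but the highest Tgm3 was not in either mouse with the highest markers.

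Tgm5, which encodes a transglutaminase of the upper epidermis, had 21.2, 29.5 and 16.7 FPKM in the controls and 21.4, 16.3 and 15.7 FPKM in JunBΔep mice. The groups overlapped, and the log2 fold change was -0.30 ± 0.25 (SE, limma adjusted p = 0.722). It was -0.09 without control replicate 1, the highest mouse, and -0.22 and -0.06 within the 23x and 27x series. Since Tgm5 kept its level while Tgm1 and Tgm3 were at their highest in the library labelled JunBΔep replicate 0, the make-up of the transglutaminase RNA differed there. Tgm5 took 38.5%, 52.3% and 24.6% of the summed FPKM of the 3 transglutaminase genes in the controls and 9.44%, 18.7% and 25.0% in JunBΔep mice. Tgm1 took 58.3%, 46.8% and 58.8% in the controls and 63.8%, 70.9% and 64.7% in JunBΔep mice. That sum was 54.9, 56.3 and 67.9 FPKM in the controls and 227, 87.3 and 62.6 FPKM in JunBΔep mice. The ratio of Tgm1 to Tgm5 was 1.51, 0.895 and 2.39 in the controls and 6.76, 3.80 and 2.58 in JunBΔep mice. All 3 JunBΔep ratios thus lay above the controls, in replicate 2 by little. How often the ratios of other gene pairs separate in this way was not tested.

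**Figure D2:**
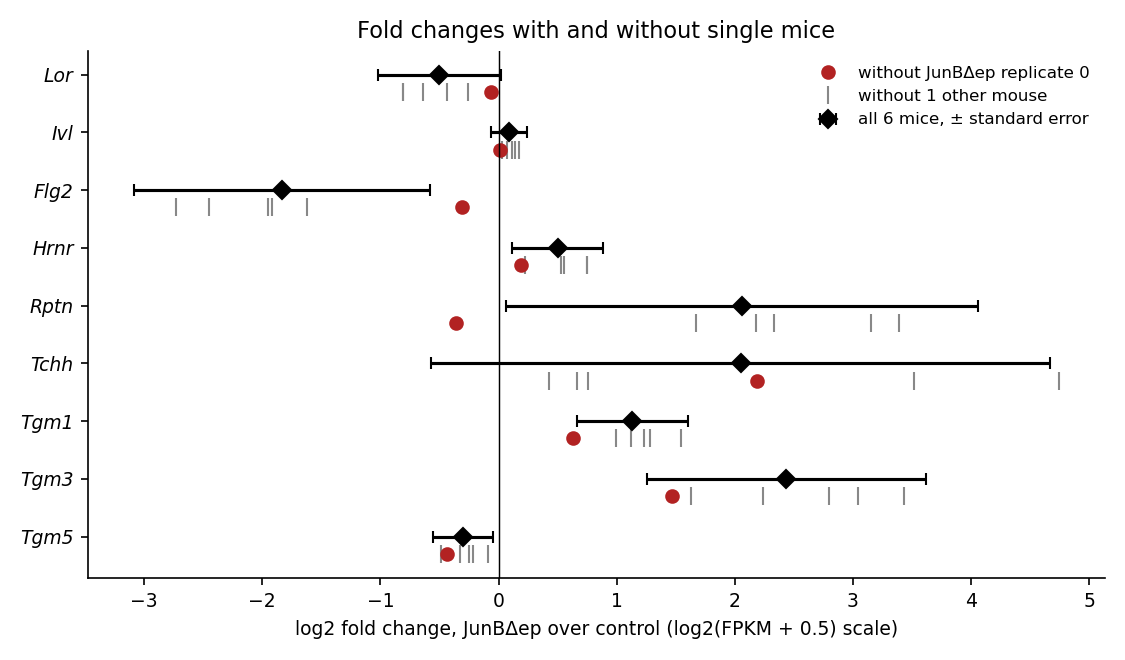
Log2 fold change of each gene, JunBΔep over control, on the log2(FPKM + 0.5) scale. Black diamonds are the fit with all 6 mice and bars its standard error, red circles the fit without the library labelled JunBΔep replicate 0, and grey ticks the fits without 1 of the other 5 mice. Flg2 moves from -1.83 to -0.31 and Rptn from 2.06 to -0.36 when that library is left out, and Ivl stays between 0.01 and 0.17.

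Set in order of mean level, the controls had Lor (2251 FPKM), Tchh (126 FPKM), Flg2 (106 FPKM), Ivl (81.9 FPKM), Tgm1 (32.8 FPKM), Tgm5 (22.4 FPKM), Hrnr (11.4 FPKM), Tgm3 (4.51 FPKM) and Rptn (3.03 FPKM). Among neighbours in that order the ranges of the 3 mice were apart for Lor and Tchh, for Ivl and Tgm1, and for Tgm5 and Hrnr, and overlapped for the other 5 pairs. The 2nd place of Tchh rests on control replicate 2, as it ranked 9th and 8th in control replicates 0 and 1. In JunBΔep mice the order was Lor (1656 FPKM), Rptn (132 FPKM), Tchh (129 FPKM), Ivl (87.0 FPKM), Tgm1 (82.3 FPKM), Flg2 (57.6 FPKM), Tgm3 (25.4 FPKM), Tgm5 (17.8 FPKM) and Hrnr (16.5 FPKM). There the ranges were apart only between Lor and Rptn, and the 2nd place of Rptn rests on the library labelled JunBΔep replicate 0. What repeated sequence within Hrnr, Flg2, Tchh and Rptn does to either order was not tested. By the SD of log2(FPKM + 0.5) over all 6 mice, the most variable were Tchh (3.71), Rptn (2.92), Tgm3 (2.07) and Flg2 (1.96), followed by Tgm1 (0.87), Lor (0.67), Hrnr (0.56), Tgm5 (0.34) and Ivl (0.13).

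The genes whose profile over the 6 mice was nearest to that of each member were found by the root mean square difference of centred log2(FPKM + 0.5) values among 9778 genes whose mean reached 5 FPKM. Tchh ran closest to Krtap3-3 (0.11) and Krt86 (0.13), a hair keratin-associated protein and a hair keratin. Rptn was nearest to Defb4 (0.33), an antimicrobial beta-defensin, and Sprr2h (0.41), a small proline-rich envelope protein. Flg2 was nearest to Skint7 (0.24), a member of the Skint family, and Glb1l2 (0.30). Tgm1 was nearest to Pla2g7 (0.07) and Fosl2 (0.13), the latter an AP-1 subunit. Lor was nearest to Khk (0.11) and Ovol2 (0.12), Hrnr to Sfrp2 (0.11) and Mtmr9 (0.12), Ivl to Sema3f (0.03) and Snx1 (0.04), Tgm5 to Chchd1 (0.10) and Sptssa (0.10), and Tgm3 to Ehf (0.52), an epithelial transcription factor, and Aox4 (0.61). This difference is in log2 units and tends to be smaller for flat profiles such as that of Ivl, so it does not rank the members. Among the members, the nearest pairs were Ivl and Tgm5 (0.31), Hrnr and Ivl (0.42) and Hrnr and Tgm1 (0.54). All of these are descriptions over the same 6 libraries, with no test.

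**Figure D3:**
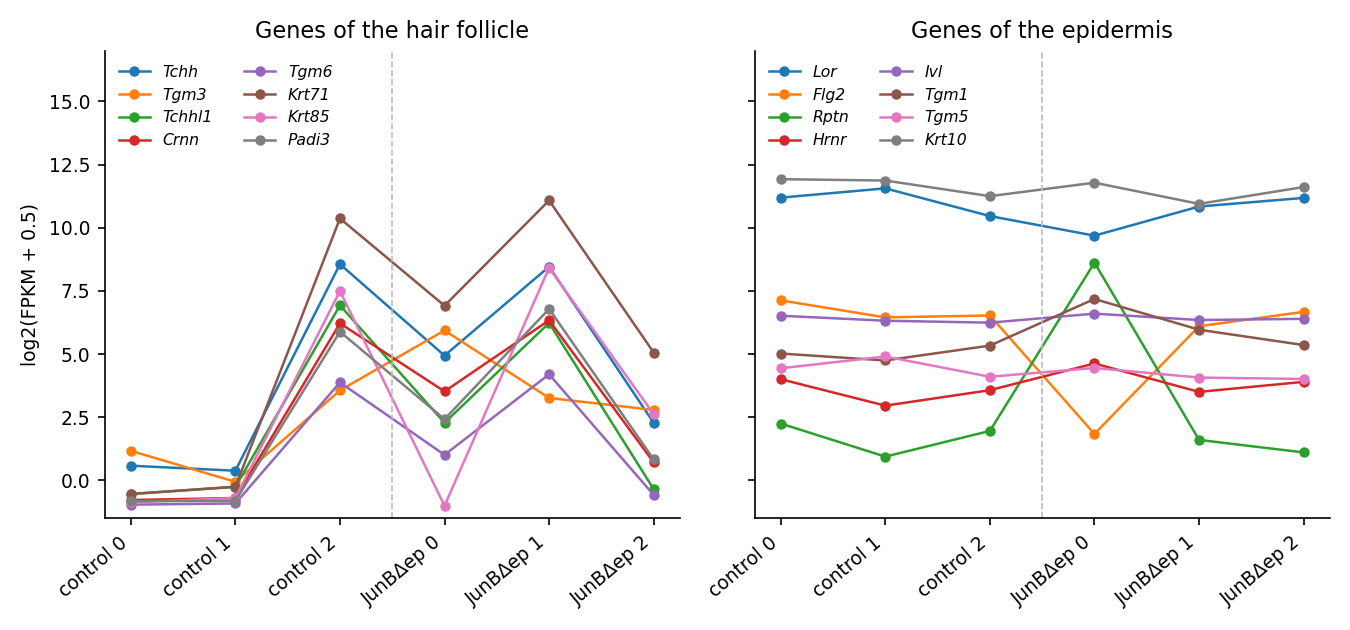
Level of single genes in each mouse as log2(FPKM + 0.5), with the 3 controls left and the 3 JunBΔep mice right of the dashed line. Lines only join the points of a gene, since mice have no order. At left Tchh, Tchhl1, Crnn, Tgm6, Krt71 and Padi3 are high together in control replicate 2 and JunBΔep replicate 1 while Tgm3 is highest in the library labelled JunBΔep replicate 0. At right Flg2 and Rptn cross in that library, and Ivl, Hrnr and Tgm5 span less than Flg2 and Rptn.

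Other genes of the same families followed the hair follicle markers in part. Crnn, which encodes cornulin, and Tchhl1, a relative of trichohyalin, complete the S100-fused genes listed here, and neither was called. Crnn was at 0.0848, 0.118 and 73.9 FPKM in the controls and 11.0, 80.4 and 1.14 FPKM in JunBΔep mice. Tchhl1 was at 0.189, 0.338 and 121 FPKM in the controls and 4.37, 74.7 and 0.289 FPKM in JunBΔep mice. Like Tchh, both were highest in control replicate 2 and JunBΔep replicate 1.

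Of 6 other transglutaminase family genes none was called, 2 had positive and 4 negative log2 fold changes, and their median was -0.73, or -0.85 without the library labelled JunBΔep replicate 0. Tgm7 was at 4.53, 6.41 and 3.30 FPKM in the controls and 0.726, 1.37 and 2.92 FPKM in JunBΔep mice. The JunBΔep values were all below the controls, as was the case for 9.16% of all tested genes. The log2 fold change of Tgm7 was -1.36 ± 0.44 (SE), with a limma unadjusted p of 0.0217 (adjusted p = 0.454). Tgm6 was at 14.2 FPKM in control replicate 2 and 17.9 FPKM in JunBΔep replicate 1 and at or below 1.52 FPKM in the other mice. Epb4.2, an erythrocyte membrane protein of this family, was at 3.55 FPKM in control replicate 0 and at most 0.125 FPKM elsewhere. F13a1, the A subunit of coagulation factor XIII, had a log2 fold change of -0.84 ± 0.47 (SE, limma adjusted p = 0.722).

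Filaggrin-type proteins are trimmed, deiminated and degraded by a set of proteases and peptidylarginine deiminases. None of 15 genes of this processing, a protease inhibitor among them, was called. Of these 11 had positive and 4 negative log2 fold changes, and the median was 0.44. Casp14, the caspase of cornifying keratinocytes, was at 31.6, 18.7 and 46.6 FPKM in the controls and 303, 73.0 and 37.4 FPKM in JunBΔep mice. Its log2 fold change was 1.62 ± 0.79 (SE, limma adjusted p = 0.719), and 0.78 without the library labelled JunBΔep replicate 0. Padi3, the deiminase that acts on trichohyalin, was at 0.0675, 0.0707 and 58.5 FPKM in the controls and 4.87, 110 and 1.28 FPKM in JunBΔep mice, high in the same mice as Tchh. Padi1, another deiminase, read 17.3 FPKM in control replicate 2, 18.6 FPKM in JunBΔep replicate 1 and at most 4.48 FPKM elsewhere. Tmprss11d, an airway-type serine protease, reached 21.4 FPKM for the library labelled JunBΔep replicate 0 and at most 0.0723 FPKM in the other 5 mice. The highest value was in that library for 9 of the 15, and without it the median of the 14 genes tested was 0.12.

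Envelope partners that are cross-linked alongside loricrin and involucrin were listed as 14 genes. None was called, 10 had positive and 4 negative log2 fold changes, the median was 0.26, and 11 of 14 had their highest value in the library labelled JunBΔep replicate 0. In that library Dsp, Crct1 and Evpl were at 1.47, 1.48 and 1.51 times the control mean and Cdsn and Sbsn at 0.773 and 0.700 times, whereas the small proline-rich genes were much further away. Sprr1b, a small proline-rich protein, was at 3.20, 1.03 and 6.06 FPKM in the controls and 2557, 3.42 and 1.72 FPKM in JunBΔep mice. Sprr2d was at 0.507, 0.601 and 0.186 FPKM in the controls and 1363, 1.30 and 4.35 FPKM in JunBΔep mice. All 3 were above the controls, as was the case for 5.62% of all tested genes. The log2 fold change of Sprr2d was 4.64 ± 2.42 (SE, limma adjusted p = 0.722), and 1.69 without that library. Sprr3, of the same family, reached 398 FPKM in it beside 0 to 0.0444 FPKM elsewhere. Lce3c, a late envelope gene, was at 159 FPKM in it and at 2.04 to 3.55 FPKM in the other mice. Lce1m went the other way, like Lor and Flg2, with 1419, 1884 and 841 FPKM in the controls and 31.2, 921 and 1464 FPKM in JunBΔep mice. Cnfn, which encodes cornifelin, was at 149, 213 and 185 FPKM in the controls and 1757, 309 and 218 FPKM in JunBΔep mice. The median of the 14 genes relative to the control mean was 0.76 on the log2 scale in the library labelled JunBΔep replicate 0 and -0.06 and -0.04 in JunBΔep replicates 1 and 2. Fitted without that library, the median log2 fold change of the 13 genes then tested was -0.09.

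Cathepsins, their inhibitor and calpain, which process transglutaminases or are controlled along with them, were measured for 5 of 6 listed genes. None was called, the median log2 fold change was 0.11, and all 5 peaked in the library labelled JunBΔep replicate 0, without which the median was -0.11. Capn2, a calpain, was at 37.0, 30.4 and 33.9 FPKM in the controls and 136, 31.5 and 46.1 FPKM in JunBΔep mice. Ctsd, the lysosomal protease cathepsin D, was at 449, 470 and 430 FPKM in the controls and 1330, 459 and 698 FPKM in JunBΔep mice. Cst6, a cathepsin inhibitor, was at 224, 172 and 129 FPKM in the controls and 251, 162 and 140 FPKM in JunBΔep mice.

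Transcription factors known to act on late differentiation genes were listed as 20 genes, Junb among them. None was called, 15 had positive and 5 negative log2 fold changes, and the median was 0.41, or 0.20 without the library labelled JunBΔep replicate 0. Ovol1, a zinc finger factor, was at 22.4, 17.8 and 32.0 FPKM in the controls and 67.1, 55.5 and 20.3 FPKM in JunBΔep mice. Grhl3, a grainyhead-like factor of barrier formation, was at 28.3, 16.4 and 21.8 FPKM in the controls and 88.3, 27.6 and 25.8 FPKM in JunBΔep mice. Fosl1, a subunit of AP-1, reached 15.6 FPKM for the library labelled JunBΔep replicate 0 and read 0.141 to 0.414 FPKM elsewhere. Gata3 was at 80.2, 92.5 and 62.0 FPKM in the controls and 12.8, 95.1 and 64.5 FPKM in JunBΔep mice, low where Flg2 was low. Dlx3, a homeobox factor of epidermis and hair, was at 12.9, 10.4 and 71.5 FPKM in the controls and 15.0, 217 and 17.7 FPKM in JunBΔep mice, highest in the mice with high Tchh.

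**Figure D4:**
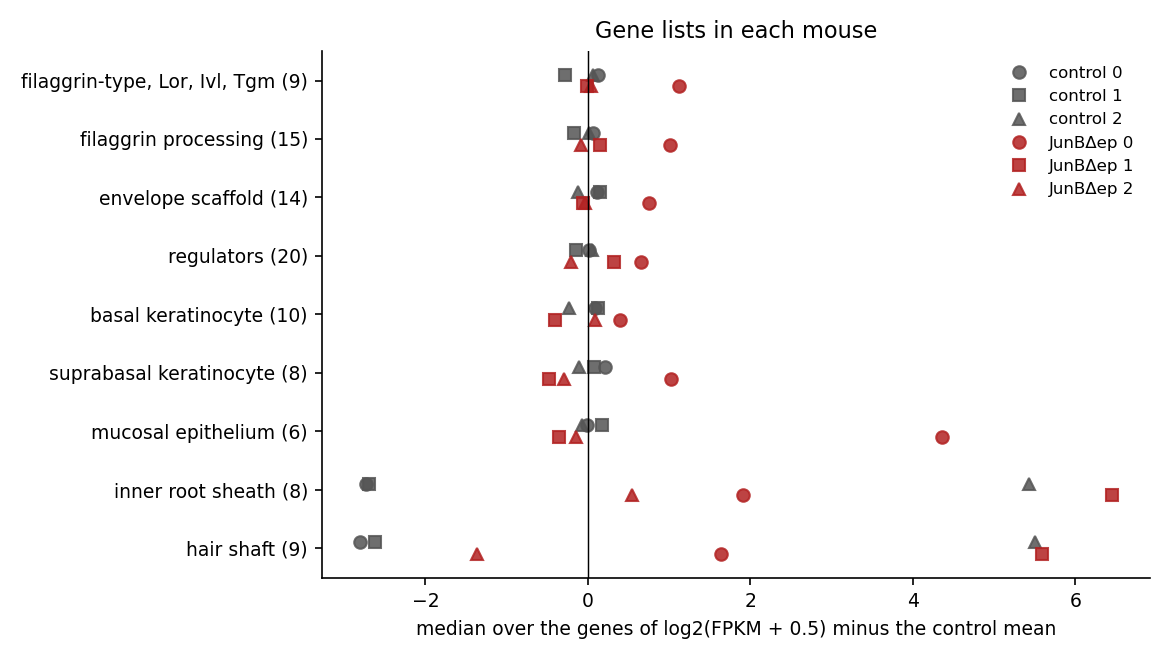
Each point is 1 mouse and gives the median, over the tested genes of a list (number in brackets), of log2(FPKM + 0.5) minus the mean of the 3 controls. Grey symbols are controls and red symbols JunBΔep mice (circle, square and triangle for replicates 0, 1 and 2). The library labelled JunBΔep replicate 0 (red circles) stands highest for the 9 genes (1.11), filaggrin processing (1.01) and mucosal epithelium (4.36), and the hair lists are highest in control replicate 2 and JunBΔep replicate 1.

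Markers of other epithelial states and cells stood beside these values as follows. Summed over 6 markers of mucosal epithelium, the lining of mouth and oesophagus, FPKM were 47.7, 55.9 and 39.6 in the controls. The sum was 3443 FPKM in the library labelled JunBΔep replicate 0, and 25.1 and 38.6 FPKM in JunBΔep replicates 1 and 2. Krt78 made up most of the sum in the other 5 mice but not in that library. It read 46.7, 54.2 and 28.8 FPKM in the controls and 43.2 FPKM in that library. In JunBΔep replicates 1 and 2 it read 23.7 and 37.7 FPKM. Krt13, a keratin that defines such lining, was at 1990 FPKM in that library and at 0 to 0.367 FPKM in the other 5 mice, and Krt4 reached 1356 FPKM beside 0.307 to 0.937 FPKM elsewhere. In the same library Krt77, a suprabasal keratin of skin, was at 1.79 FPKM beside 945 to 2159 FPKM elsewhere, and Krt1 was at 4466 FPKM beside 446 to 958 FPKM. Krt84 was at 0 in that library, Krt13 at 0 in JunBΔep replicate 2, and Pax9 at 0 in JunBΔep replicates 1 and 2. Of the 6 mucosal markers 4 were highest in that library. It was thus the mouse with the most Rptn, Tgm1, Tgm3, Sprr1b, Krt13 and Krt4 and the least Flg2, Lor, Lce1m and Krt77. The part of mucosal-type epithelium in the values of this library was not tested.

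Basal keratinocyte genes, as a measure of epidermis in the sample, had 0 of 10 called, 5 positive and 5 negative log2 fold changes and a median of 0.00. The values behind that median lay far apart, with -3.71 for Krt14, listed at 0 in the library labelled JunBΔep replicate 0, and -1.82 for Krt15, at 80.7 FPKM there beside 947 to 2388 FPKM in the other mice. Without that library the median of the 10 was -0.19. Suprabasal genes had 0 of 8 called and a median of 0.14, or -0.35 without that library. Among stressed-keratinocyte genes 0 of 6 were called, with a median of -0.33 that includes the 4 genes listed at 0 in that library (Krt6a, Krt6b, Krt16 and S100a9), and of 0.34 without it. Krt17, which marks stressed epidermis and hair follicles, was at 626, 837 and 719 FPKM in the controls and 4025, 1319 and 713 FPKM in JunBΔep mice, and S100a8 reached 24456 FPKM for the library labelled JunBΔep replicate 0 and read 8.15 to 744 FPKM elsewhere. Leukocyte markers, 5 of 6 measured, summed to 140 FPKM in that library and to 18.5 to 56.1 FPKM in the other mice. Of the 5, 0 were called and 4 were highest in that library. Cd3e, a T cell marker, was lowest there, at 1.96 FPKM beside 3.31 to 8.44 FPKM elsewhere. Adipocyte markers summed to 1717 to 5386 FPKM in the controls and to 66.4, 2662 and 13500 FPKM in JunBΔep mice, with 0 of 5 called, and of 6 dermal fibroblast markers 0 were called (median -0.70, or -1.08 without the library labelled JunBΔep replicate 0). Skeletal muscle was the 1 list with calls, 8 of 10 lower and a median of -3.28. The 8 were Acta1, Ckm, Myh1, Myh2, Mylpf, Tnnc2, Tnni2 and Tnnt3, genes of the contractile apparatus and its energy supply. Without the library labelled JunBΔep replicate 0, 2 list genes were called, Mb and Myh1, of which 1 was among the 8, while the median stayed at -3.06 with 10 of 10 negative. Without JunBΔep replicate 2, 8 list genes were called, 7 of them shared, and 0 were called without any 1 control, without JunBΔep replicate 1, or with either the replicate number or the title series as a block. In the liver list 0 of 6 markers were called, and these summed to 1693 FPKM in control replicate 0 and at most 29.6 FPKM in the other mice. The part of muscle, fat, leukocytes and liver RNA in the levels of the 9 genes was not tested.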

How the data were processed

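Poly(A) RNA of whole skin from 3 control and 3 JunBΔep mice was sequenced with a stranded library kit. Per the study's methods and the submitters' processing notes, the authors checked reads with FastQC, aligned them to mm9 with TopHat2 2.0.10 (Bowtie 1.0.0, SAMtools 0.1.19), allowing 2 mismatches and 20 multihits, and used the iGenomes annotation. Cufflinks is named without a version. The authors deposited 1 table of FPKM per gene and mouse, so counting intervals cannot be given, and repeated sequence within a gene can change its FPKM. Their own test was DESeq2 on counts, which were not analysed here. From the FPKM, log2(FPKM + 0.5) was fitted by genotype with limma 3.58.1 (R 4.3.3, intensity trend, two-sided, no covariate) for genes whose mean reached 0.1 FPKM, with Benjamini-Hochberg adjustment at 0.05. The fit was tested on simulated data. Plots used matplotlib 3.10.9 and tables pandas 2.3.3 under Python 3.11.15.

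The members, the gene lists and the tests were chosen with earlier results of these data known, so counts over them are descriptions. All 9 members with a row are named, as are Junb and the 2 genes nearest to each member in profile. From each list the genes called or, up to 4, those whose log2 fold change was largest in size could be named, beside defining keratins, and not every such gene is. Cnfn, Lce3c, Dsp, Crct1, Evpl, Cdsn, Sbsn, Cst6, Gata3, Krt2, Krt6b, Krt17, Krt78, Krt85, Padi4 and Pax9 lie outside this rule and were chosen after their values were seen. Ctsv, Ly6g and Flg are not analysed here. Alternatives were other pseudocounts, filters, scalings and variance models, both blocks, and leaving out each mouse. List medians without 1 library were added after seeing the data. Promoter windows come from the RefSeq table (GRCm38.p6) and were placed on mm9 by exact match, and positions and repeats come from the GENCODE annotation of mm9.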

Additional observations from a re-analysis of the deposited data

How the results depend on the processing

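None of the 9 genes was called under any of the 17 alternative fits, where limma adjusted p ranged from 0.179 to 0.985, and 152 of 153 log2 fold changes in those fits kept their direction. The exception there was Rptn, with -0.36 to 3.39 when 1 mouse was left out and -0.36 without the library labelled JunBΔep replicate 0. The other filters, the other variance model and the replicate block left every fold change unmoved. Those fits could therefore not reverse a direction. Within the 27x title series, a value with no test, Lor, Rptn, Tchh and Tgm3 also had the opposite sign (0.55, -0.60, -3.19 and -0.54). Over all tested genes 235 were called, and 166 to 247 under the other pseudocounts, filters, scalings and variance model. With the replicate block 0 were called, and with the title number series as a block 0. Leaving out 1 mouse gave 0 to 254: 0 without any 1 control or without JunBΔep replicate 1, and 135 without the library labelled JunBΔep replicate 0. Of the genes in the lists 8 were called, 10 with the filter at 1 FPKM, 10 with scaling to basal keratinocyte genes, 2 with no filter on low values, 0 with the replicate block, 0 with the title series block, and 0 to 8 when 1 mouse was left out. The causes were not tested. Deviations of same-numbered mice correlated at 0.12, -0.23 and -0.43. With no values for differently numbered mice beside them, these cannot show whether the replicate numbers pair the mice. Scaling to basal keratinocyte genes moved the median log2 fold change of all genes from 0.03 to 0.20 and that of the 9 from 0.50 to 0.67. Read numbers are not known, and no limit from depth can be given for genes near 0 FPKM.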
